A study of Homo sapiens with 4 samples.

Results

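The proteasome genes were taken as every entry of the deposited count table whose gene name is PSM, a letter from A to G and a number. This rule found 48 of 60675 entries, each under a name of its own. They are 7 subunits of the alpha ring and 1 alternative alpha subunit (PSMA8), 4 structural and 3 constitutive catalytic beta subunits, 3 inducible catalytic beta subunits and 1 thymic catalytic subunit (PSMB11). The regulatory and accessory genes are 6 ATPases and 3 scaffold or receptor subunits of the base, 8 lid subunits, 3 base assembly chaperones, 4 activators, 1 inhibitor and 4 core assembly chaperones. RNA was sequenced from 4 replicate libraries of HT1080, an established human fibrosarcoma line of connective tissue, and every library carried the same genotype, a knockout of KDAC8. KDAC8 is a lysine deacetylase, the product of the HDAC8 gene. Control cells were not analysed here, so the values are levels in knockout cells, ratios between subunits within a library and the spread between libraries. The labels give neither the way the knockout was made nor whether the line is 1 clone, and they do not say that the replicates were separate cultures. The tests below therefore speak only for the spread among these 4 libraries, part or all of which can be technical.

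The proteasome is the protease that degrades most ubiquitin-tagged proteins of the cell. Its core is a barrel of stacked rings, with alpha subunits at the gates and beta subunits, some of them catalytic, inside. A regulatory particle, built of a base with a ring of ATPases and a lid, recognises, unfolds and deubiquitinates substrates. Interferon gamma induces a second set of catalytic subunits that replace the constitutive ones in the immunoproteasome, which changes the peptides made for antigen presentation. The factor NFE2L1 is known to raise transcription of proteasome genes when proteasome activity is low, through antioxidant response elements in their promoters.

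Rounded counts summed to 39454167 to 45828772 per library. Levels are given as CPM, counts scaled to TMM-corrected library size, and comparisons between genes use CPM per kilobase of the principal coding transcript. HDAC8 itself stood at 2.18 ± 0.242 CPM (SD, n = 4), and where the knockout lies in the gene is not given, so this level does not test the genotype. The mesenchymal marker VIM stood at 4701 ± 283 CPM (SD, n = 4), while the epithelial markers EPCAM and CDH1 had 0 counts in all 4 libraries. In bulk RNA, fewer expressing cells and less RNA per cell cannot be told apart.

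Nearly the whole set was expressed. Of the 48 genes, 46 were detected, meaning 1 CPM or more in each of the 4 libraries, against 21.4% of all entries and 58.8% of protein-coding entries. PSMA8 and PSMB11 were not detected. The detected genes had a median of 54.6 CPM per kilobase, while the median over 11543 detected protein-coding genes was 9.88 CPM per kilobase. Of the 46 detected genes, 44 lay above that second median, and the exceptions were PSMB9, the inducible partner of PSMB6, and PSMD5, a base assembly chaperone. All 48 genes together took 0.536%, 0.563%, 0.541% and 0.509% of the counts in replicates 1 to 4.

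**Figure D1:**
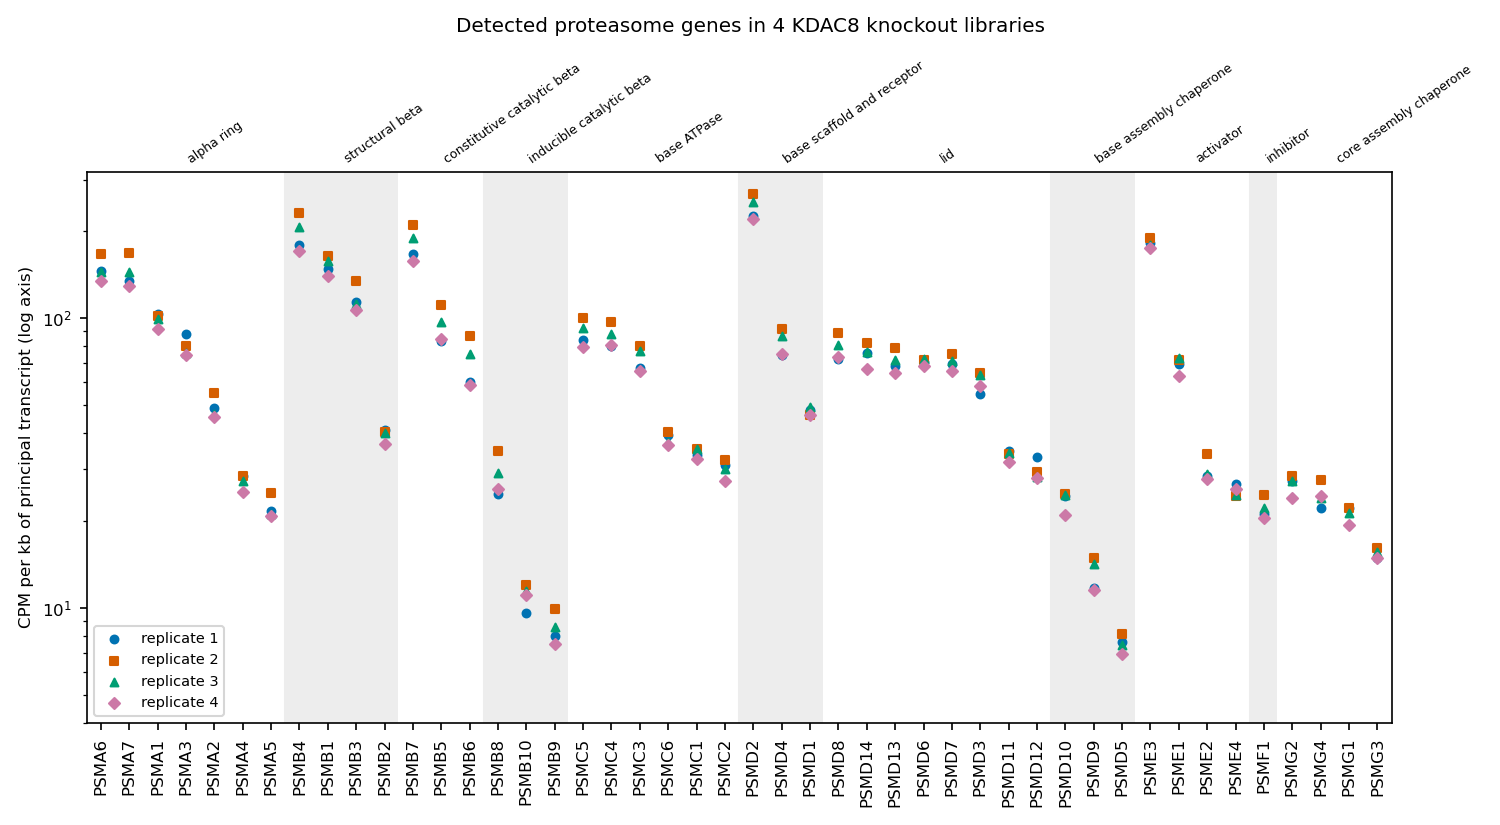
Level of each of the 46 detected proteasome genes in each of 4 KDAC8 knockout libraries, as CPM per kilobase of principal transcript on a log axis, with genes grouped by subunit class (shaded and white bands) and a symbol for each replicate. PSMD2 stood highest at a mean of 241 CPM per kilobase. The inducible subunits PSMB9 and PSMB10 and the chaperone PSMD5 had means at or below 11.0 CPM per kilobase.

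Sequence before the start sites is shown for a few genes because the detected levels of constitutive and inducible subunits differed widely. RefSeq (GRCh38.p14) gave start sites for 42 of the 48 genes, with 51 windows of 250 bases before a start. The genes without an entry were PSMA7, PSMB1, PSMB6, PSMB7, PSMD4 and PSMG3. Since 47 of the 51 windows hold at least 1 base of a GENCODE 29 exon, and 18 lie wholly in exons, the stretches printed are the longest run of the window outside exons. For PSMB10 and PSME2 only 28 bases around a match are printed. Each sequence reads 5′ to 3′ on the gene's strand, and capitals mark matches, on either strand, to TGACNNNGC (antioxidant response element core), GAAANNGAAA (interferon response factor core), CCAAT (bound by NF-Y) or CGGAAG (ETS factor core). Constitutive core and lid genes come first, with PSMA4 at chr15:78540155-78540404 (plus strand), PSMB3 at chr17:38752491-38752735 (plus strand), PSMB4 at chr1:151399323-151399533 (plus strand), PSMB5 at chr14:23035231-23035470 (minus strand) and PSMD3 at chr17:39980557-39980796 (plus strand).
PSMA4: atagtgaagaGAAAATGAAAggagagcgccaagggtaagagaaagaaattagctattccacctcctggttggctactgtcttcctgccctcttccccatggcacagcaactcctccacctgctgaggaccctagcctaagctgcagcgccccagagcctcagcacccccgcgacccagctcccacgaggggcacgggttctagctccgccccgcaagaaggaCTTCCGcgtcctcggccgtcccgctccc
PSMB3: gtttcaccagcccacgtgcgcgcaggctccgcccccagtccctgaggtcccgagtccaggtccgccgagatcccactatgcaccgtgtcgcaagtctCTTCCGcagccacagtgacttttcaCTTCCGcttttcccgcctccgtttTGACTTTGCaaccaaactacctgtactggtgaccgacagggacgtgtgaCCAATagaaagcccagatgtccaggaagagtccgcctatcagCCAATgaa
PSMB4: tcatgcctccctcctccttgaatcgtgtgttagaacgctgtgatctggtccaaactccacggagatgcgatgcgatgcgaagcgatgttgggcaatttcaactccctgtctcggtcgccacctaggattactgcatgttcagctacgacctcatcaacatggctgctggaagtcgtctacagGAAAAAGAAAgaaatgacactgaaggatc
PSMB5: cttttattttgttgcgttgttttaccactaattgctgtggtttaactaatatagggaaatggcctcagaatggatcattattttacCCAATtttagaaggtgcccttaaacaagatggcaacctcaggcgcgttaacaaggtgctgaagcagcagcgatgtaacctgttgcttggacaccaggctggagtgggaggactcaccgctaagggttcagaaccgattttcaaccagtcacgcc
PSMD3: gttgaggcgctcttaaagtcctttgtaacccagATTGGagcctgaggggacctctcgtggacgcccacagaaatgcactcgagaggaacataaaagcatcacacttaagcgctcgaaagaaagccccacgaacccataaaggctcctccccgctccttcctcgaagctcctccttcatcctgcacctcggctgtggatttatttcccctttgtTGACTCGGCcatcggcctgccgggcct
The interferon-inducible genes follow, with PSMB9 at chr6:32853979-32854147 (plus strand), PSMB10 at chr16:67936853-67936880 (minus strand) and PSME2 at chr14:24146620-24146647 (minus strand).
PSMB9: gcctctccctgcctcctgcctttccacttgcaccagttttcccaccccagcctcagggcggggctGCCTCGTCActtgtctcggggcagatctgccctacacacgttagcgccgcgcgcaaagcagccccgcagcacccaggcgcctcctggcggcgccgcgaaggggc
PSMB10: ggtaaaggcGAAAGCGAAAgcaggaagt
PSME2: ctggggagtGAAAGCGAAAgcccgggcg

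PSMB10 and PSME2 shared the same 10 letters, GAAAGCGAAA, which began 21 and 28 bases before their starts. Neither window of PSMB8, nor that of PSMB9 or PSME1, held a match to GAAANNGAAA, which leaves 2 of these 5 interferon-inducible genes with one. PSMB4 and PSMA4, constitutive core genes, held other matches to the same pattern, GAAAAAGAAA 68 bases and GAAAATGAAA 240 bases before the start. PSMB3 held the most matches of the printed set, with TGACTTTGC 104 bases before the start, CTTCCG at 153 and 128 bases, and CCAAT at 55 and 13 bases. Over all 51 windows, GAAANNGAAA was found in 5 windows (9.80%), against 3.02% of all 35116 RefSeq windows of that length and 2.33% of 13380 windows of detected coding genes. TGACNNNGC was found in 13 windows (25.5%), against 10.9% and 11.5%. CGGAAG was found in 25 windows (49.0%), against 16.5% and 25.9%, and CCAAT in 19 windows (37.3%), against 32.0% and 33.0%. Some genes have several windows, and windows of neighbouring starts share bases, so these shares are descriptions of letters and not of binding.

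The alpha ring forms the gate of the core particle. All 7 genes passed the detection level, and their median was 79.5 CPM per kilobase. PSMA6 had the highest mean, at 145, 166, 144 and 134 CPM per kilobase in replicates 1 to 4 (147 ± 13.4, SD, n = 4), and PSMA7 exceeded it in 2 of 4 libraries, at 134, 167, 145 and 129. PSMA5 was the lowest, at 21.6, 24.9, 21.1 and 20.7 CPM per kilobase (22.1 ± 1.90, SD, n = 4). For both genes replicate 2 was the highest library and replicate 4 the lowest. The gap and the order depend on the length used. Per kilobase of coding sequence PSMA6 stood at 205 CPM and PSMA5 at 114 CPM, above PSMA2 at 104 CPM and PSMA3 at 101 CPM. Per kilobase of joined exons PSMA7 was the highest at 81.8 CPM and PSMA2 the lowest at 13.6 CPM.

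The structural beta genes encode the inner-ring subunits without an active site, and had a median of 134 CPM per kilobase. PSMB4 led the class and the whole core, at 179, 229, 206 and 170.0 CPM per kilobase (196 ± 27.1, SD, n = 4). PSMB2 stood lowest in the class by principal transcript, at 41.1, 40.4, 40.1 and 36.8 CPM per kilobase (39.6 ± 1.91, SD, n = 4). Per kilobase of coding sequence PSMB3 was the lowest of the class at 146 CPM, beside 177 CPM for PSMB2. Replicate 2 was clearly highest for PSMB4, while for PSMB2 replicates 1 to 3 lay close together above replicate 4. The 14 constitutive core genes are built into the particle in equal number, and their RNA levels ranged from 22.1 (PSMA5) to 196 (PSMB4) CPM per kilobase, with a coefficient of variation of 56.1% over genes. Per kilobase of coding sequence the same 14 genes ranged from 83.3 (PSMB6) to 239 (PSMB4) CPM, 2.87-fold, with a coefficient of variation of 29.4%. Per kilobase of all joined exons the range was 13.6 (PSMA2) to 98.9 (PSMB7) CPM. Neighbours in the order of core levels, from PSMB4 to PSMB7, PSMB1, PSMA6, PSMA7 and PSMB3, overlapped in their library ranges. Within libraries PSMB4 was above PSMB7, PSMB7 above PSMB1 and PSMA7 above PSMB3 in 4 of 4, PSMB1 above PSMA6 in 3 of 4, and PSMA6 above PSMA7 in 2 of 4.

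The catalytic beta subunits carry the protease sites, and each constitutive gene has an inducible partner. PSMB5, the chymotrypsin-like subunit, stood at 83.3, 111, 96.9 and 84.3 CPM per kilobase in replicates 1 to 4. Its inducible partner PSMB8 (chromosome 6, 32840717 to 32844703 in GENCODE 29) stood at 24.7, 34.7, 29.2 and 25.7 CPM per kilobase. The ranges of the 2 genes over libraries did not overlap, and both were highest in replicate 2 and lowest in replicate 1. The log2 ratio of PSMB8 to PSMB5 was -1.72 ± 0.03 (SD, n = 4), so that PSMB8 made up 23.3% ± 0.409 of the pair.

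PSMB6, the caspase-like subunit, stood at 60.1, 86.5, 75.1 and 58.7 CPM per kilobase. Its partner PSMB9 (chromosome 6, 32844136 to 32859585) stood at 7.97, 9.90, 8.58 and 7.50 CPM per kilobase, the lowest level of the detected core genes. Both were highest in replicate 2 and lowest in replicate 4. The log2 ratio of PSMB9 to PSMB6 was -3.04 ± 0.11 (SD, n = 4).

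PSMB7, the trypsin-like subunit, stood at 166, 209.8, 189 and 157 CPM per kilobase. Its partner PSMB10 (chromosome 16, 67934502 to 67937087) stood at 9.60, 11.9, 11.4 and 11.0 CPM per kilobase. Replicate 4 was the lowest library for PSMB7 and replicate 1 for PSMB10. The log2 ratio of PSMB10 to PSMB7 was -4.03 ± 0.14 (SD, n = 4), a 16.4-fold gap, the widest of the 3 catalytic pairs per kilobase of principal transcript. Per kilobase of joined exons the pair PSMB9 and PSMB6 was wider, with a log2 ratio of -4.24 beside -3.77 for PSMB10 and PSMB7. The inducible gene was lower in 4 of 4 libraries in each pair. The exact two-sided sign-flip permutation test gave p = 0.125 for each of the 6 ratios computed here, adjusted p = 0.125 (Benjamini-Hochberg), which is the smallest p that 4 libraries allow.

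**Figure D2:**
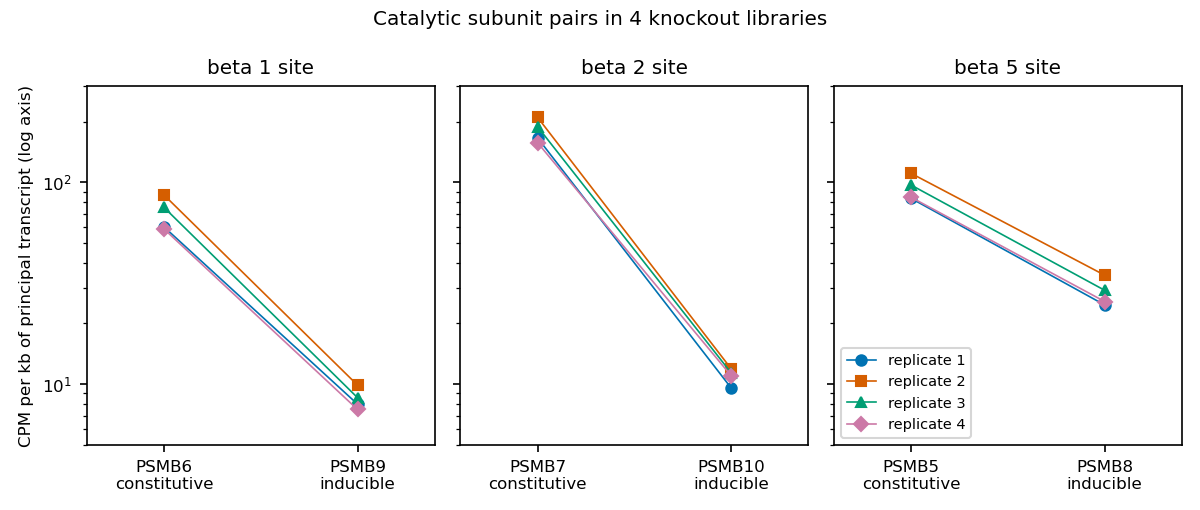
CPM per kilobase of principal transcript (log axis) of each constitutive catalytic subunit and its inducible partner, with a line and symbol for each of the 4 libraries. Every line descends from the constitutive to the inducible gene, and the pair PSMB7 and PSMB10 has the widest gap (16.4-fold), PSMB5 and PSMB8 the narrowest (3.29-fold).

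The tissue-restricted forms of core subunits were at or near 0. PSMA8, the testis form of PSMA7, had 0 counts in each library, which allows up to 0.0662 to 0.0742 CPM in a library (3 counts). PSMA7 stood at 134, 167, 145 and 129 CPM per kilobase, at least 14710-fold higher than PSMA8, with the floor of 3 counts taken over the 4 libraries. PSMB11, the catalytic subunit of thymic epithelium, had 0, 0, 1 and 1 counts in replicates 1 to 4. PSMB5 was 16864-fold higher per kilobase than PSMB11 (95% counting interval 4668 to 139249). Intervals and floors cover counting error only.

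The regulatory particle begins with the base, whose 6 ATPases form the unfolding ring. They had a median of 55.5 CPM per kilobase and a narrower range than the core. PSMC5 had the highest mean, with 133, 158, 146 and 126 CPM in replicates 1 to 4, or 89.1 ± 9.06 CPM per kilobase (SD, n = 4). PSMC2 was the lowest, at 31.1, 32.3, 30.2 and 27.4 CPM per kilobase (30.2 ± 2.09, SD, n = 4). Replicate 2 was highest and replicate 4 lowest for both. The order of the ATPases depends on the length used. Per coding kilobase PSMC6 was the lowest at 69.6 CPM, beside 71.1 CPM for PSMC2. Per joined exon kilobase PSMC6 was the lowest at 11.2 CPM and PSMC4 the highest at 57.6 CPM. Exons of PSMC5 overlap 874 bases of FTSJ3 on the opposite strand, which had a mean of 5784 counts beside 5988 for PSMC5. Strand use in counting is not given in the sources used here, so reads of this overlap cannot be assigned.

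The scaffold subunits PSMD1 and PSMD2 carry the docking sites for ubiquitin receptors and enzymes of the base, and PSMD4 is a ubiquitin receptor. PSMD2 (chromosome 3, 184298709 to 184309054, plus strand) stood apart, at 225, 267, 251 and 219.8 CPM per kilobase in replicates 1 to 4 (241 ± 22.3, SD, n = 4). PSMD1, which has the same fold and occurs in the particle in equal number, stood at 48.2, 46.3, 49.3 and 46.3 CPM per kilobase (47.5 ± 1.48, SD, n = 4). PSMD2 was 4.66-fold to 5.77-fold above PSMD1 across libraries, and the ranges of the pair were far apart. PSMD2 exceeded all other proteasome genes per kilobase of principal transcript, of coding sequence and of joined exons. It was 3.42-fold above the median of the other 16 base and lid subunits among the 48 genes per kilobase of principal transcript. The gap was 2.95-fold per coding kilobase and 5.46-fold per joined exon kilobase. Its counts made up 15.4% of all counts of the 48 genes, and it ranked 91 by CPM among 11570 detected coding genes and 192 by CPM per kilobase among 11543 with a length.

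The 5 detected coding genes on either side of PSMD2 were compared with it, a choice made after its value was seen. EIF4G1, a translation initiation factor and the next detected coding gene in the direction of transcription, stood at 180.1 ± 8.87 CPM per kilobase (SD, n = 4). AP2M1, a clathrin adaptor subunit at the far end of the window, stood at 313 ± 30.0 CPM per kilobase (SD, n = 4). The genes between AP2M1 and PSMD2 were much lower, with ABCF3 at 19.3, ALG3 at 42.7, CAMK2N2 at 5.40 and ECE2 at 2.97 CPM per kilobase. Beyond EIF4G1, FAM131A stood at 26.1, CLCN2 at 3.23, POLR2H at 51.9 and MAGEF1 at 22.8 CPM per kilobase. High levels were thus scattered among low ones in this stretch of chromosome 3. The order depends on the length used: AP2M1 stood at 127 and PSMD2 at 152 CPM per joined exon kilobase, and POLR2H at 208 and EIF4G1 at 207 CPM per coding kilobase.

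**Figure D3:**
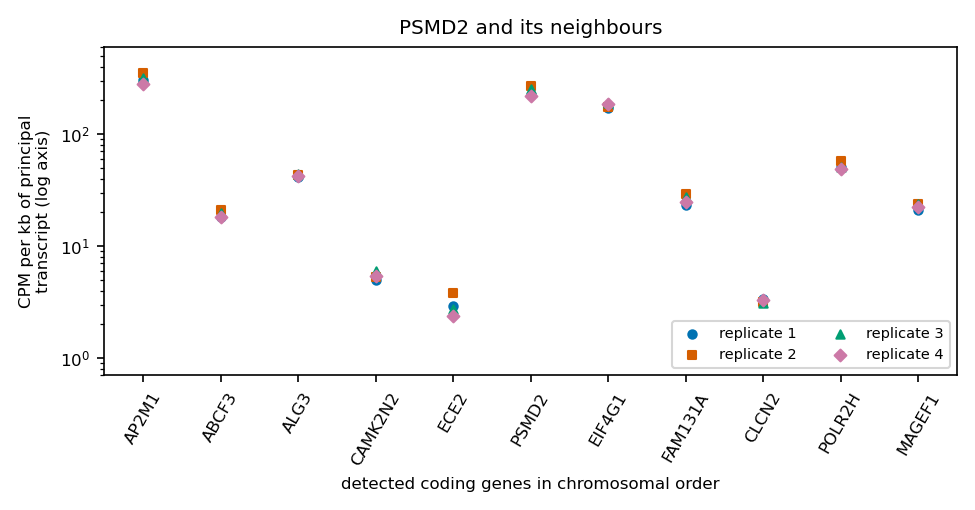
CPM per kilobase of principal transcript (log axis) of PSMD2 and the 5 detected coding genes on each side of it, in chromosomal order, with a symbol for each of the 4 libraries. PSMD2 (mean 241), EIF4G1 (180.1) and AP2M1 (313) stand above the other genes, of which POLR2H is the highest at 51.9.

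The lid removes ubiquitin chains from substrates, and PSMD14 is its deubiquitinating enzyme. The 8 lid genes found by the naming rule had a median of 70.4 CPM per kilobase. PSMD8 had the highest mean, at 72.2, 88.4, 80.5 and 73.5 CPM per kilobase (78.6 ± 7.45, SD, n = 4). Among these 8, PSMD12 was the lowest by principal transcript, at 33.1, 29.5, 28.2 and 28.1 CPM per kilobase (29.7 ± 2.35, SD, n = 4). Per coding kilobase PSMD3 was the lowest at 81.0 CPM, and per joined exon kilobase PSMD6 at 11.1 CPM. SEM1, a subunit outside the naming rule, stood at 19.7 CPM per kilobase of principal transcript. PSMD12 departed from most of the set in having its highest value in replicate 1. PSMD14 stood at 75.1 ± 6.26 CPM per kilobase (SD, n = 4), and it was the highest lid gene per coding kilobase, at 158 CPM.

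The activators open the core gate without ATP. PSME1 and PSME2, the interferon-inducible subunits of a mixed ring, lie close together on chromosome 14. PSME1 stood at 69.5, 71.4, 72.5 and 63.2 CPM per kilobase, and PSME2 at 28.6, 33.8, 28.9 and 27.9 CPM per kilobase. PSME1 was above PSME2 in 4 of 4 libraries, with a log2 ratio of 1.22 ± 0.11 (SD, n = 4). Exons of PSME2 overlap RNF31 on the opposite strand by 216 bases, so the counts of PSME2 are uncertain to that extent.

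PSME3, the nuclear activator, stood at 182, 188, 179 and 175 CPM per kilobase (181 ± 5.59, SD, n = 4), close together in all libraries. The log2 ratio of PSME3 to PSME1 was 1.39 ± 0.07 (SD, n = 4) by principal transcript, but it turned to -0.16 per kilobase of joined exons, so the order of PSME3 and PSME1 depends on the length used. PSME4, a large single-chain activator, stood at 26.7, 24.3, 24.5 and 25.7 CPM per kilobase. Its log2 ratio to PSME3 was -2.84 ± 0.09 (SD, n = 4), and PSME4 was the lower gene in 4 of 4 libraries. The inhibitor PSMF1, which binds the core in competition with activators, stood at 21.1, 24.4, 22.1 and 20.5 CPM per kilobase, with replicate 2 highest.

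The assembly chaperones act only while particles are built. The RNA of those found by the naming rule was lower than that of most subunits. The base chaperones had a median of 13.1 CPM per kilobase. Among them PSMD10 stood at 24.3, 24.7, 24.5 and 20.9 CPM per kilobase, with replicate 4 apart from the other libraries. PSMD5 stood at 7.63, 8.10, 7.44 and 6.94 CPM per kilobase and was the lowest of the 46 detected genes by principal transcript. The core chaperones had a median of 22.9 CPM per kilobase. PSMG2 had the highest mean among them, at 27.4, 28.5, 27.3 and 23.9 CPM per kilobase, and PSMG3 lowest, at 14.8, 16.1, 15.6 and 14.9 CPM per kilobase. This order depends on the length used. Per coding kilobase PSMG3 was the highest at 58.4 CPM, beside 57.0 CPM for PSMG2. Per joined exon kilobase PSMG1 was the highest at 18.1 CPM and PSMG4 the lowest at 1.97 CPM. Of the 14 constitutive core genes, 13 exceeded every base and core chaperone found by the naming rule per kilobase of principal transcript. Per coding kilobase 14 did so, and per joined exon kilobase 11. POMP, the maturation factor of the core, lies outside the rule and stood above these chaperones with each length. It stood at 92.4 CPM per kilobase of principal transcript, beside 196 for PSMB4, the highest core gene. Per coding kilobase POMP stood at 291 CPM, above PSMB4, the highest core gene at 239. Per joined exon kilobase it stood at 86.1 CPM, beside 98.9 for PSMB7, the highest core gene.

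Some counts rest on shared or overlapping sequence. Counts were whole in all libraries for 31 of the 48 genes and not whole for 17, as happens when a read is divided among genes. Exons of 23 genes overlapped another annotated gene. PSMB10 shares 644 bases with AC040162.1 on the same strand, which had 71.27 to 114.33 counts, and PSMB8 and PSMB9 overlap by 139 bases on opposite strands. Of 31 pseudogene entries of the family, 14 had 0 counts in all libraries. PSMC1P1, a copy of the ATPase gene PSMC1, had 184.97, 462.95, 256.31 and 117.42 counts in replicates 1 to 4, so that replicate 2 was highest and replicate 4 lowest by 3.94-fold. PSMC1 itself had 6050.12, 6597.55, 7122.9 and 6135.21 counts.

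Nearly all of these genes differed between the replicate libraries by more than counting noise, although by small amounts. A chi-square test of homogeneity with Benjamini-Hochberg adjustment over 16790 genes called 44 of the 46 proteasome genes tested, against 59.2% of all genes tested. Where the mean reached 10 CPM, it called 43 of 45 proteasome genes (95.6%) against 77.7%. The exceptions were the lid gene PSMD6, with adjusted p = 0.0869, and the core chaperone PSMG3, with adjusted p = 0.255 (chi-square test, Benjamini-Hochberg). PSMD6 was also the steadiest, at 101, 102, 103 and 97.7 CPM. No proteasome gene had a highest library 1.5-fold or more above its lowest, a range passed by 1.75% of genes at 10 CPM or more.

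PSMB6, PSMB8 and PSMB4 varied most, with SDs of log2 CPM of 0.27, 0.22 and 0.20. PSMB6 stood at 51.2, 73.7, 64.0 and 50.0 CPM in replicates 1 to 4, a 1.47-fold range (adjusted p = 6.6e-56, chi-square test, Benjamini-Hochberg). PSMB8 stood at 27.8, 39.0, 32.8 and 28.9 CPM, and PSMB4 at 172, 221, 199 and 164 CPM. In all 3 genes replicate 2 was highest and replicate 3 second, with replicates 1 and 4 below. The median SD of log2 CPM was 0.12 over the 46 detected genes and 0.09 over all genes tested at 10 CPM or more.

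The differences had a common direction. Of the 45 genes at 10 CPM or more, 33 (73.3%) varied and were highest in replicate 2, against 31.7% of all genes at that level. Likewise 33 (73.3%) varied and were lowest in replicate 4, against 29.0%. For peaks in replicates 1, 3 and 4 the counts were 7, 3 and 0 of 45, against 21.0%, 11.9% and 13.0%. For minima in replicates 1, 2 and 3 they were 8, 2 and 0 of 45, against 19.9%, 19.5% and 9.22%. The genes with a peak in replicate 1 were PSMA1, PSMA3, PSMA4, PSMB2, PSMD11, PSMD12 and PSME4, and those with a peak in replicate 3 were PSMC1, PSMD1 and PSME1. The median deviation from a gene's own mean was -0.03, 0.13, 0.03 and -0.12 log2 CPM in replicates 1 to 4, while over 12984 detected genes it was -0.01, 0.02, 0.01 and -0.02. With total counts in place of TMM factors, the medians were 0.01, 0.07, 0.01 and -0.08, and their range over libraries was 0.152, against 0.242. Of 46 genes, 27 were then highest in replicate 2 and 28 lowest in replicate 4. The shares of all genes with total counts are not given here, so these counts have no background beside them. By class, with TMM factors, the range over libraries was 0.439 for the constitutive and 0.421 for the inducible catalytic genes, and 0.123 for the activators. Without replicate 2 it was 0.291 for the constitutive and 0.199 for the inducible catalytic genes, the latter below the 0.207 of the base scaffold and receptor genes.

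**Figure D4:**
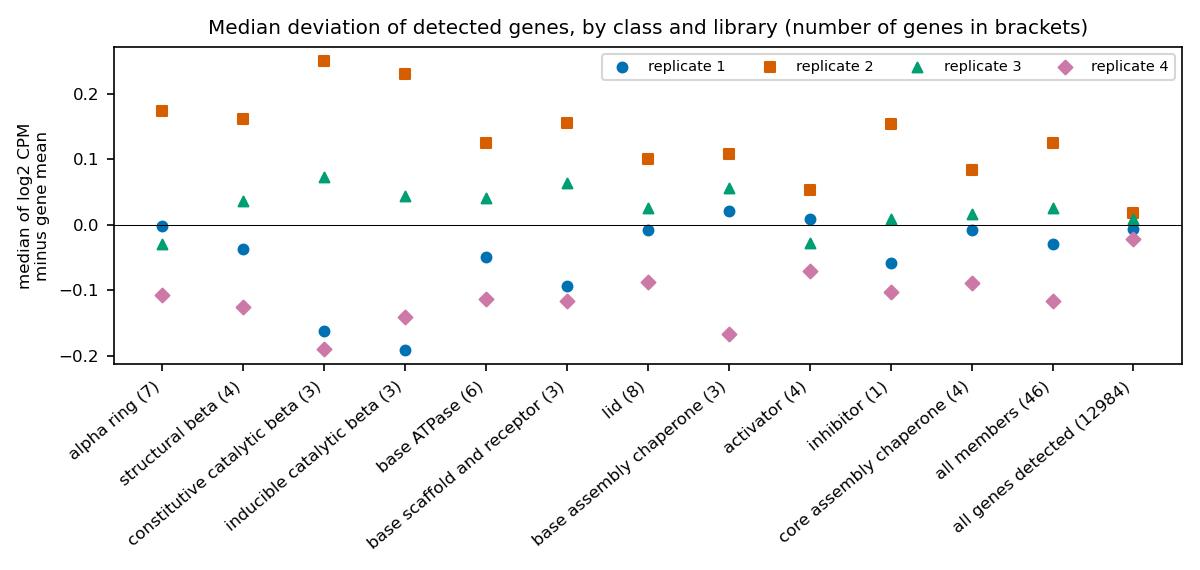
Median over the detected genes of each subunit class of log2 CPM minus the gene's mean over libraries, with a symbol for each of the 4 libraries and the number of genes in brackets. Replicate 2 lies highest and above 0 in every class, up to 0.25 for the constitutive catalytic genes, while the median of all detected genes stays between -0.02 and 0.02.

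Transcript length and GC content moved with these deviations, in the proteasome genes and in coding genes generally. In replicate 2, shorter transcripts had higher deviations, with a Spearman rho with length of -0.52 over the 46 proteasome genes and -0.58 over 9208 coding genes at 10 CPM or more. In replicate 4 the sign was opposite, with rho of 0.30 and 0.51. In replicate 1 deviations were lower at higher GC, with rho of -0.75 over the proteasome genes and -0.78 over 9204 coding genes. Genes share the same libraries here, so these correlations across genes are descriptions. After a linear trend on length and GC was removed, a step chosen after the data were seen, the median deviations of the proteasome genes were -0.02, 0.04, 0.01 and -0.04. The range between the highest and lowest library went from 0.24 to 0.08 log2 units, and the median SD was then 0.063 for the proteasome genes and 0.065 for coding genes. Of the 46 genes, 33 then lay above 0 in replicate 2 and 10 in replicate 4, against 43 and 2 before. The share of coding genes above 0 is not given here. PSMB6 kept 0.16 in replicate 2 and -0.11 in replicate 4, PSMD9 kept 0.14 and -0.13, and PSMA5 kept 0.18 and -0.06. The share of counts in structural RNA genes (RN7SL1, RN7SL2, RN7SK, RPPH1 and RMRP) was 5.41%, 8.18%, 6.82% and 6.12%, also highest in replicate 2. The share in mitochondrial genes was 2.85%, 1.99%, 2.58% and 3.28%, with its minimum in replicate 2 and its maximum in replicate 4. The part of these quantities in the shared direction was not tested.

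**Figure D5:**
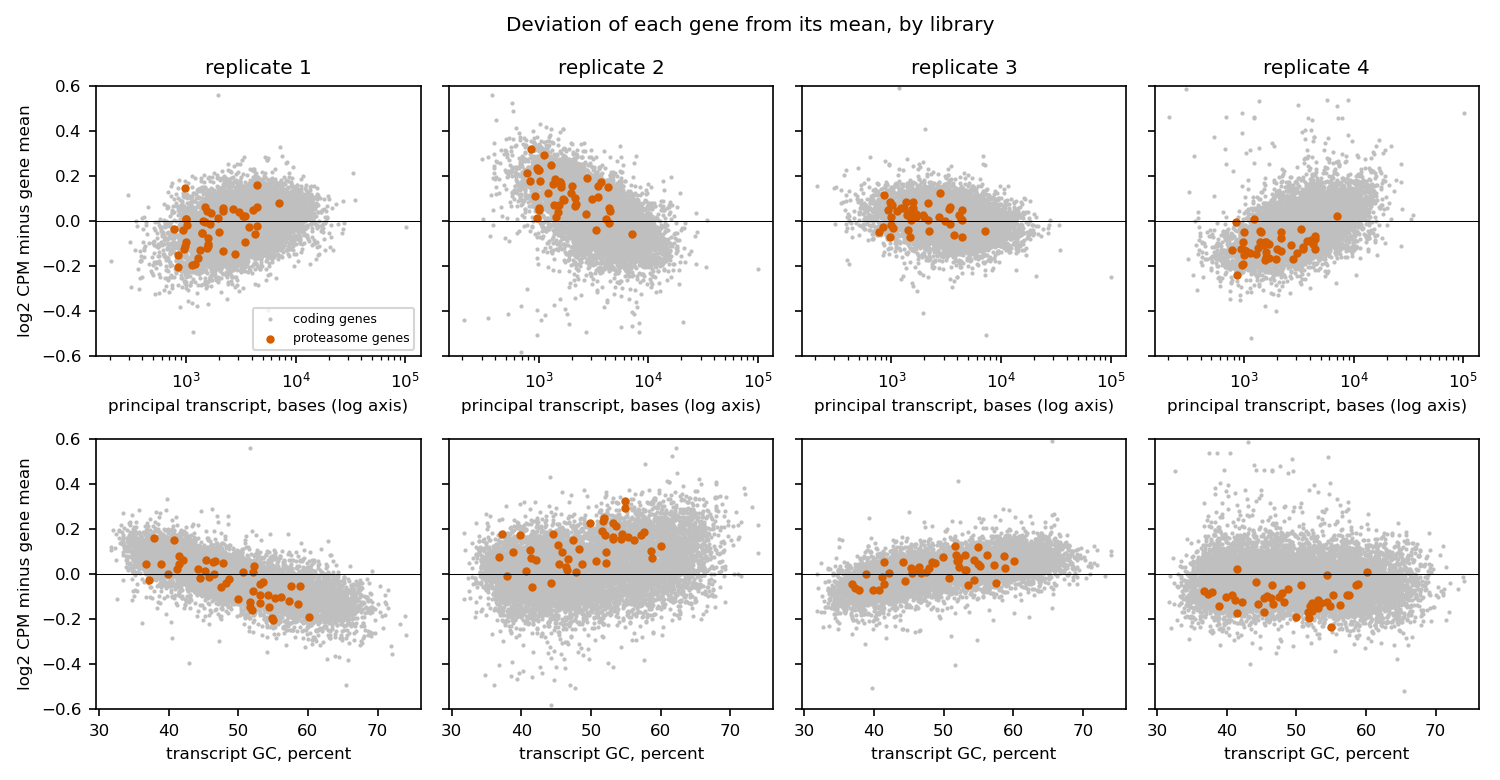
Deviation of each gene from its mean log2 CPM in each of 4 libraries (panels left to right), against principal transcript length in bases (log axis, upper panels) and transcript GC in percent (lower panels), with coding genes at 10 CPM or more in grey and proteasome genes in orange. The orange points lie within the grey cloud, mostly above 0 in replicate 2 (43 of 46 genes) and below 0 in replicate 4 (all but 2 of 46).

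Genes that act with the proteasome were examined by role, and all 38 were detected. Of these, 35 varied between libraries by the same test, beside 77.7% of genes at 10 CPM or more. With total counts 31 varied, and leaving out each library in turn gave 28 (without replicate 1 or 2) to 32. The shares of all genes called in these settings are not given here. Of the other subunit and assembly genes, POMP, the maturation factor of the core, was highest at 92.4 ± 9.81 CPM per kilobase (SD, n = 4). This list includes the subunits ADRM1 (65.0) and SEM1 (19.7 CPM per kilobase), which are not among the base and lid genes above. PAAF1, a base-binding regulator, was lowest at 3.88 ± 0.177 CPM per kilobase (SD, n = 4) and did not pass the test (adjusted p = 0.218, chi-square test, Benjamini-Hochberg). Among enzymes and adaptors bound to the particle, ECPAS was highest at 35.7 ± 0.513 and UCHL5, a deubiquitinase, lowest at 12.1 ± 0.762 CPM per kilobase (SD, n = 4).

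The transcriptional regulators were led by NFE2L1, at 66.4, 59.0, 67.1 and 66.7 CPM per kilobase. Replicate 2, where most proteasome genes were highest, was the lowest library for NFE2L1, by 282 against 317 to 320.3 CPM. The principal transcript of NFE2L1 is 4774 bases, and longer transcripts had lower deviations in replicate 2 over coding genes. The part of length was not tested here. DDI2, the protease that cleaves NFE2L1, stood at 3.62 ± 0.115 CPM per kilobase (SD, n = 4). NFE2L2, a related factor, stood at 34.3 ± 1.83 CPM per kilobase (SD, n = 4).

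All 14 genes of ubiquitin supply and delivery varied with the 4 libraries and TMM factors, beside 77.7% of genes at 10 CPM or more. With total counts 11 varied, and without replicate 4 also 11, with no share of all genes given for these settings. RPS27A, which encodes a ubiquitin fusion, was highest at 449.7 ± 24.7 and UBQLN2, a shuttle factor, lowest at 11.9 ± 0.502 CPM per kilobase (SD, n = 4).

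In the interferon and antigen presentation group all 9 genes were detected and varied, beside 77.7% of genes at 10 CPM or more. Without replicate 1, 6 varied, and without replicate 2, 5 varied, with no share of all genes given for these settings. B2M, the light chain of class I molecules, was highest at 318, 339.6, 314 and 313 CPM per kilobase. NLRC5, the class I transactivator, was lowest at 2.66, 2.38, 2.75 and 3.01 CPM per kilobase. NLRC5 had its lowest value in replicate 2 and its highest in replicate 4, the reverse of PSMB9. The principal transcript is 6822 bases for NLRC5 and 782 bases for PSMB9, and deviations in these 2 replicates moved with length over coding genes. The part of length in this contrast was not tested. The peptide transporter gene TAP1, which lies within the annotated span of PSMB9 on the opposite strand, stood at 6.95 ± 0.451 CPM per kilobase, while its partner TAP2 stood at 52.4 ± 3.92 CPM per kilobase (SD, n = 4). IRF1, the interferon response factor, stood at 4.93 ± 0.334 CPM per kilobase (SD, n = 4).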

How the data were processed

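Total RNA from 4 libraries was depleted of ribosomal RNA and sequenced as read pairs, per the labels' protocols. The authors deposited expected counts per gene, a unit read from values that are not all whole. The tools named, per the submitters' processing notes, are RSEM 1.3.3, Bowtie2 2.5.4, Trimmomatic 0.39 and DESeq2 1.46.0, and the build is GRCh38. The sources used here give no tool roles, annotation release or strand setting. The library columns were matched by name, and 0 per-sample columns were left unused.

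Counts were rounded to whole numbers and scaled with TMM (edgeR 4.0.16). Lengths, GC and positions came from GENCODE 29, where 94.0% of gene IDs were found, using the APPRIS principal coding transcript. With 1 group there is no contrast, so each gene with a mean of 10 or more counts had a chi-square test of homogeneity over libraries (3 degrees of freedom), with Benjamini-Hochberg adjustment at 0.05. The test was also run on simulated data with known changes. Start-site windows came from RefSeq.

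The genes and lists were chosen with earlier results of these data known. Named in full were the catalytic subunits, PSMA8, activators, the inhibitor, the highest and lowest gene of each other class, the 3 most variable genes, and in each companion list the highest, lowest and most variable gene. Some genes that this rule names are not reported here. NFE2L2, TAP1, TAP2, IRF1, the neighbours of PSMD2, PSMC1P1 and the overlapping genes were named outside this rule, after their values were seen. Alternatives were DESeq2 1.42.0 size factors, total counts, other count and detection minimums, a G test, unrounded counts, other gene lengths, and each library left out.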

Additional observations from a re-analysis of the deposited data

Results flagged for a closer look

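Each of 90 genes or measures with 4 libraries was examined for a library whose distance from its nearest neighbour took most of the range (Dixon's 95% criterion). Chance gives such a library in about 1 in 20 groups, and 6 genes had one. Of the proteasome genes only PSMD10, a base assembly chaperone, was among them, with 32.3 CPM in replicate 4 below the other libraries. Among the genes that act with the proteasome, UBE3C, a ubiquitin ligase bound to the particle, stood low in replicate 4 at 158 CPM. In replicate 2, NFE2L1 stood low at 282 CPM and ERAP1, a peptide-trimming enzyme, low at 43.0 CPM, while B2M stood high at 579 CPM. UBA6, a ubiquitin-activating enzyme, stood high in replicate 1 at 225 CPM.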

How the results depend on the processing

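No paired analysis was possible because the labels give 1 group. The number of genes detected stayed at 46 under each alternative tried, and the number varying between libraries lay between 34 (without replicate 4) and 45 (without replicate 3), against 44. Of the 38 genes that act with the proteasome, 31 varied with total counts and 28 to 32 with a library left out, against 35. The shares of all genes called under these alternatives are not given here. Changes in these counts therefore cannot be read as particular to these genes. The log2 ratio of PSME3 to PSME1 turned from 1.39 to -0.16 with joined exon lengths, and the other 5 ratios kept their sign under each alternative tried. Class medians depend on the length used. With joined exon and with coding length, CPM per kilobase was 23.3 and 154 for the alpha ring, 69.5 and 187 for structural beta, 68.8 and 154 for constitutive and 7.23 and 16.4 for inducible catalytic genes, 28.7 and 98.4 for ATPases, 36.5 and 97.7 for base scaffold and receptor, 25.3 and 113 for the lid, 5.85 and 53.8 for base chaperones, 26.3 and 75.8 for activators, and 12.2 and 56.3 for core chaperones. The range over libraries of the median deviation was 0.0984 for the lid, 0.0828 for core chaperones, 0.149 for ATPases (0.239 with TMM) and 0.152 for all members (0.242 with TMM) with total counts, and 0.0846 for all members with the length and GC trend removed, which was chosen after seeing the data. Leaving out each library in turn gave 0.158 to 0.292 for the alpha ring (0.282 with all), with 0.178 for structural beta without replicate 2 (0.287 with all), 0.199 to 0.400 for inducible catalytic genes (0.421 with all), 0.087 to 0.273 for base chaperones (0.275 with all), 0.0582 to 0.159 for activators (0.123 with all) and 0.0923 to 0.195 for core chaperones (0.173 with all). The called variation of PSMB9, PSMB10, PSMC1 and PSMD5 was lost with total counts, that of PSMB10 without replicate 1, and that of PSMA5, PSMB9, PSME2 and PSMG4 without replicate 2. Without replicate 4 it was lost for PSMA1, PSMA4, PSMB2, PSMB9, PSMD5, PSMD10, PSMD11, PSME1, PSMG1 and PSMG2. PSMD6 passed the test without replicate 1, 2 or 3. The cause was not tested. Depth limits PSMA8 and PSMB11, which lie at or under 3 counts in total.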
